A study of Homo sapiens with 18 samples.

Results

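The step from 0.63 to 1.25 µM IMD-0354 at 24 h was described in A375 cells, an established human melanoma line with an activating BRAF mutation, by 3' end RNA sequencing. IMD-0354 is a small molecule known as an inhibitor of IKKβ, the kinase that releases NF-κB from its inhibitor. The members were chosen by their labels: the 3 libraries of cells exposed to 1.25 µM for 24 h and the 3 libraries of cells exposed to 0.63 µM for 24 h, 6 of the 18 libraries in the series. The other libraries came from cells exposed to 0.63 µM for 48 h or 0.32 µM for 24 h and from untreated cells at 24 and 48 h, with 3 of each. Every library came from the same line, and no vehicle is named for untreated cells. Separate cultures are not stated for the 3 libraries of a group, so the p-values reflect the spread among these libraries, which could be technical. The question was which gene programmes changed at this upper dose step, and which of them changed there and not at the step below it, from 0.32 to 0.63 µM.

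Genes of mitosis are switched on late in the cell cycle, after those of DNA replication, and proteins of the MuvB core together with B-MYB or FOXM1 act on many of their promoters through a short element called the CHR and through CCAAT boxes bound by NF-Y. In the integrated stress response, kinases phosphorylate the translation factor eIF2α, the transcription factor ATF4 is made, and genes of amino acid supply and of stress signalling are induced. PPP1R15A then directs a phosphatase to eIF2α, which closes the loop.

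Values are TPM, a transcript level per length scaled to a fixed total per library, so sequencing depth is unknown and a share of TPM is not a count of molecules. Differences are on the log2(TPM + 1) scale of a limma fit to all 18 libraries, with standard errors (SE) from that fit, and such differences are too small for low genes. A gene was called at an adjusted p under 0.05 in limma (Benjamini-Hochberg over 14936 genes, those that reached 1 TPM in 3 or more of 18 libraries). In the 6 libraries 14647 to 15975 genes were above 0, and the 4 most abundant transcripts, all on chromosome 21, held 13.1% to 17.1% of TPM. The 13 transcripts of mitochondrial DNA held 4.72%, 4.72% and 2.94% of TPM at 1.25 µM and 5.91%, 6.20% and 2.64% at 0.63 µM, so replicate 3 was the lowest in both groups. It was also the lowest in every other group of the series. Of 10 melanocyte markers 5 reached 1 TPM in at least 1 of the 6 libraries, and PMEL, TYR and TYRP1 were listed at 0 in each. All 5 markers of dedifferentiated melanoma were present, with summed levels of 156 to 167 TPM at 1.25 µM and 149.5 to 193.5 TPM at 0.63 µM. Most of that sum was AXL, at 93.1 to 100.7 TPM at 1.25 µM against 106 to 144 TPM at 0.63 µM, while NGFR (20.5 to 23.6 against 10.9 to 13.6 TPM) and TNC (6.20 to 9.69 against 1.87 to 4.85 TPM) lay the other way. None of these 3 was called. The 5 immune markers were at 0 in each of the 6 libraries, and fibroblast and endothelial markers stayed under 1 TPM. Among 6 keratinocyte markers KRT10 alone reached 1 TPM, at 72.7, 84.9 and 102.6 TPM at 1.25 µM and 59.6, 62.9 and 45.7 TPM at 0.63 µM.

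At 1.25 µM 70 genes were higher (0.469% of those tested) and 156 were lower (1.04%) than at 0.63 µM, 226 in all or 1.51%. At least 2-fold changes made up 53 of the rises and 101 of the falls, and 201 of the called genes are annotated as protein coding. The median over all genes tested was -0.03. Libraries of the 2 groups did not overlap for 3001 genes (20.1%), among them all 226 called genes. Quantile normalization gave another split, with 112 higher and 154 lower. The calls rest on a spread pooled over all 6 groups: with the 1.25 and 0.63 µM libraries alone in the fit, limma called 0 genes, with 2144 at an unadjusted p under 0.05 against 2299 in the fit of all 18 libraries. Leaving out replicate 3 of 1.25 µM gave 37 higher and 45 lower, and leaving out replicate 1 or 2 of 0.63 µM gave 33 and 56 or 42 and 65. Without the untreated libraries in the fit, 79 were higher and 141 lower, and 17 of the 88 named genes called lost the call (adjusted p of 0.0504 to 0.0945 in limma): PLK1, CENPA, TIMELESS, UHRF1, H1-2, H1-5, H2AC17, MTHFD2, CLIC4, HSPA1A, RRAGD, CCN1, BCL2A1, SEPSECS-AS1, ZNF182, ZNF236 and ZNF571. Without any library numbered 3, an alternative chosen after the values were seen, 19 were higher and 39 lower. In bulk samples fewer cells of a kind and less RNA per cell cannot be told apart.

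**Figure D1:**
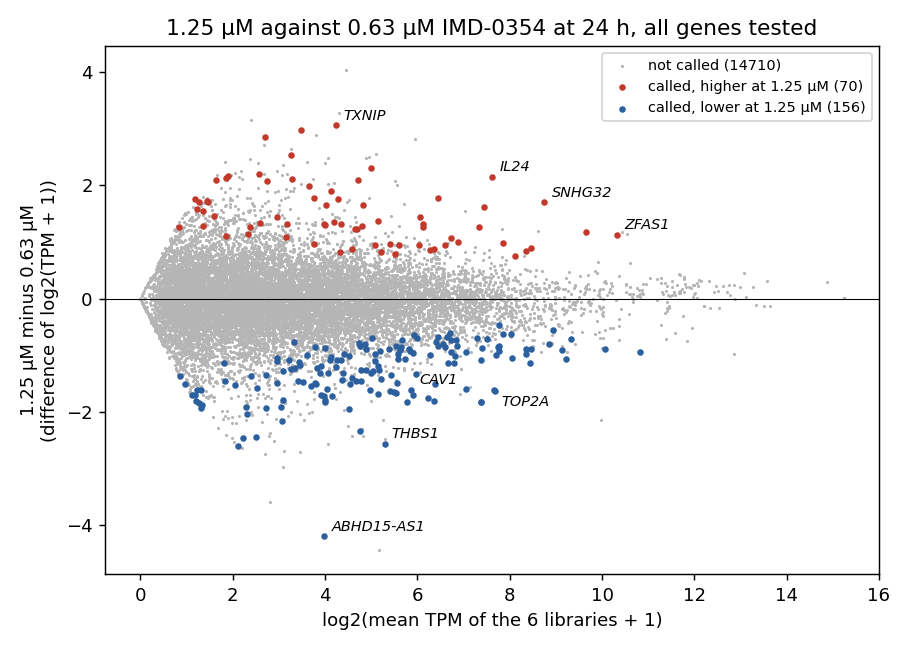
Difference between 1.25 and 0.63 µM for each of 14936 genes on the log2(TPM + 1) scale (y axis) against its mean level over the 6 libraries (x axis); red and blue points are the 70 genes called higher and the 156 called lower. Among the labelled genes TXNIP has the largest rise (3.06) and ABHD15-AS1 the largest fall (-4.20).

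Genes of mitosis and G2/M fell at 1.25 µM. Of 46 measured genes 18 were called lower and 0 higher, with a median difference of -1.0, against 1.04% of all genes called lower and a median of -0.03. A further 26 members were negative without passing, and 28 of the 46 had libraries that did not overlap between the doses. Over all 14936 genes tested 7789 were negative, and 3001 (20.1%) had no overlap. CDK1, the cyclin-dependent kinase of mitotic entry, stood at 34.2, 31.5 and 15.1 TPM at 1.25 µM, against 98.5, 123 and 51.1 TPM at 0.63 µM. The groups did not overlap, replicate 3 was the lowest of each, and CDK1 fell by 1.71 on the log2 scale (SE 0.297, adjusted p = 0.00871 in limma), a call kept with each of the 6 libraries left out. TOP2A, the topoisomerase that untangles chromosomes, was at 112, 129 and 62.5 TPM at 1.25 µM and 319, 363 and 229 TPM at 0.63 µM, a fall of 1.61 that was also kept.

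PLK1, a kinase of mitotic entry and spindle assembly, was at 35.6, 35.8 and 8.16 TPM at 1.25 µM, against 81.9, 76.1 and 84.5 TPM at 0.63 µM. Replicate 3 of 1.25 µM lay well under the other libraries of its group, and all 3 were under each library of 0.63 µM (difference -1.82, adjusted p = 0.0195 in limma). CENPF, a kinetochore protein, was at 46.6, 42.7 and 16.5 TPM against 123, 129 and 86.6 TPM, and CENPA, the histone H3 variant of centromeres, at 5.29, 10.7 and 2.96 TPM at 1.25 µM against 32.1, 17.1 and 15.95 TPM at 0.63 µM. CCNB1, cyclin B1, was at 63, 37.9 and 51.7 TPM at 1.25 µM against 105, 118 and 81.7 TPM at 0.63 µM, a fall of 1.0 (adjusted p = 0.0103 in limma). MKI67, which encodes Ki-67, was at 47.2, 35.5 and 22.2 TPM against 65.4, 98.6 and 41.8 TPM and was not called (-0.93, adjusted p = 0.153 in limma).

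The number of mitosis genes called depended on single libraries. It was 5 without replicate 3 of 1.25 µM, 5 without replicate 1 of 0.63 µM and 4 without replicate 2 of 0.63 µM, and 3 without all libraries numbered 3, while the list's median stayed between -1.16 and -0.73 over the 6 single omissions. PLK1 lost its call without replicate 1, 2 or 3 of 0.63 µM (adjusted p = 0.0742, 0.0602 and 0.0551 in limma). CENPF lost it without replicate 3 of 1.25 µM or replicate 1 or 2 of 0.63 µM, with an adjusted p of up to 0.0966 in limma, CENPA without any library but replicate 2 of 1.25 µM, with up to 0.165, and CCNB1 without replicate 1 or 2 of 0.63 µM, with up to 0.0597.

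**Figure D2:**
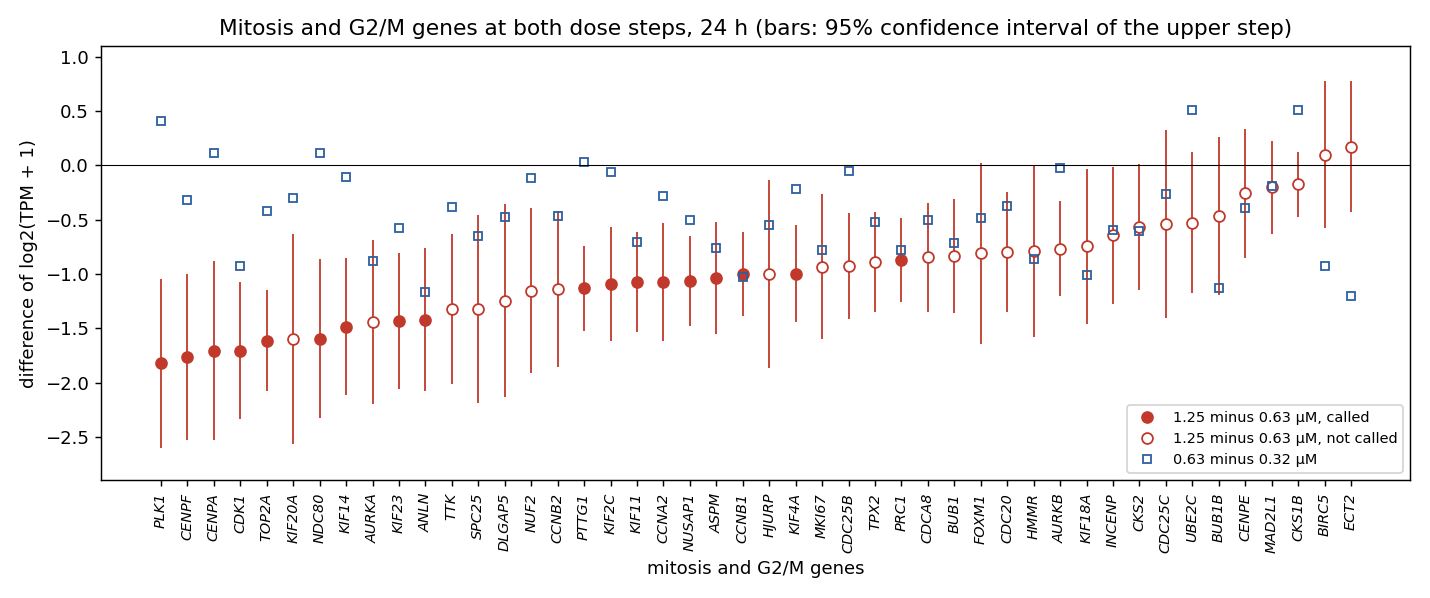
Difference of log2(TPM + 1) for each of 46 mitosis and G2/M genes between 1.25 and 0.63 µM (red circles, filled where called, bars the 95% confidence interval) and between 0.63 and 0.32 µM (blue squares). At the upper step 44 of 46 genes lie under 0 and 18 are called; the 0.63 µM libraries enter both differences.

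The 100 bases before the start of the 4 mitosis genes with the largest called falls are printed because the list's promoters share 2 elements: capitals mark TTTGAA, the core of the CHR, and CCAAT, each on either strand (TTCAAA and ATTGG on the other).
PLK1: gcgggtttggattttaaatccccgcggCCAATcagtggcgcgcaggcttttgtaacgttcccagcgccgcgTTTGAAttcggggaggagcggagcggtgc
CENPF: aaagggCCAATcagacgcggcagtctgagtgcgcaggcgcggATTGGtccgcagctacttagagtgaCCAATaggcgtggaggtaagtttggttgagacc
CENPA: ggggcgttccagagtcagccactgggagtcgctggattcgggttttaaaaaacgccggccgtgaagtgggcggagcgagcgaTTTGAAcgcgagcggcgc
CDK1: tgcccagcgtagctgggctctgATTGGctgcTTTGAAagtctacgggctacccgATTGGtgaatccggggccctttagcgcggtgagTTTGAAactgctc
They lie, all on the plus strand, at chr16:23678789-23678888, chr1:214603095-214603194, chr2:26785956-26786055 and chr10:60778378-60778477 of GRCh38.p14 (RefSeq); RefSeq lists 2 starts for CDK1, and the stretch before the downstream one is shown. The CHR core begins 29 bases before the start in PLK1, 18 in CENPA, and 69 and 13 in CDK1, and it is not among the 100 bases of CENPF, which hold 3 CCAAT boxes.

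RefSeq promoters were found for 40 of the 46 mitosis genes, and TTTGAA was in the 250 bases before a start in 25 of them (62.5%), against 12% of 10093 tested genes with a promoter. CCAAT was in 34 of the 40 (85.0%), against 42.0% of tested genes. The 39 DNA replication genes with a promoter had TTTGAA in 0 and CCAAT in 23. Within the mitosis list TTTGAA was in 10 of 18 called and 15 of 22 other genes. Over the whole upper step TTTGAA was in 31 of 130 genes called lower (23.8%) and in 8 of 54 called higher (14.8%). A match of letters describes a window and is not a site.

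Some genes of DNA precursors, replication and repair were lower as well. Of 14 genes of deoxynucleotide synthesis 4 were called lower and 0 higher (median -0.53), against 1.04% and 0.469% of all genes. TYMS, the thymidylate synthase, was at 14.6, 14.2 and 11.95 TPM at 1.25 µM and 45.1, 46.5 and 27.6 TPM at 0.63 µM. DUT, which hydrolyses dUTP, was at 173, 194 and 146 TPM against 371, 326 and 363 TPM, with no overlap. TYMS and DUT kept their calls with each library left out. RRM1, the large subunit of ribonucleotide reductase, fell by 0.86 but lost its call without replicate 2 or 3 of 1.25 µM or replicate 1 or 2 of 0.63 µM, with an adjusted p of up to 0.133 in limma.

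Of 46 genes of DNA replication and of E2F targets 2 were called lower and 0 higher, with a median of -0.56, and of 24 genes of homologous recombination and fork repair 2 were lower and 0 higher (median -0.70). Of all genes 1.04% were called lower and 0.469% higher, and both list counts rest on few genes. TIMELESS, of the fork protection complex, was at 4.99, 3.51 and 5.74 TPM at 1.25 µM against 12.5, 14.7 and 10.2 TPM at 0.63 µM. UHRF1, which guides DNA methylation after replication, was at 6.53, 6.72 and 4.33 TPM at 1.25 µM and 15.01, 13.1 and 13.04 TPM at 0.63 µM. MND1, a recombination cofactor known from meiosis, fell by 1.72. MND1 lost its call without replicate 2 of 0.63 µM (adjusted p = 0.0527 in limma). TIMELESS lost it without any library but replicate 3 of 0.63 µM, and UHRF1 without replicate 3 of 1.25 µM or any library of 0.63 µM, with an adjusted p of up to 0.12 and 0.128 in limma.

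Of 20 measured histone genes on the list of the replication-dependent kind 4 were called lower and 0 higher (median -0.30), against 1.04% and 0.469% of all genes. The list's median was further below 0 at the step from 0.32 to 0.63 µM, at -0.96, with 1 member called lower and 0 higher. Of all genes 0.154% were called lower at that step, which shares the 0.63 µM libraries. The linker histone gene H1-3 was at 31.9, 26.3 and 10.2 TPM at 1.25 µM, against 60.8, 64.6 and 78.3 TPM at 0.63 µM, and kept its call with each library left out. H4C3, a histone H4 gene, was the most abundant of the 4, at 474, 401 and 281 TPM against 1030 (replicate 1), 838 and 569 TPM. It was also called lower at the step below, by 1.29 (adjusted p = 0.0224 in limma). Transcripts of most of these genes lack a poly(A) tail, which 3' end libraries use. H1-2, H1-3, H1-5, H2AC17 and H4C3 belong to families of related genes, with near-identical copies for H2AC17 and H4C3. The level of a single gene is therefore uncertain. H4C3, H1-2 (-0.89) and H1-5 (-1.91) lost their calls without replicate 3 of 1.25 µM (adjusted p = 0.159, 0.103 and 0.199 in limma) and also without replicate 1 or 2 of 0.63 µM, H4C3 and H1-5 also without replicate 2 of 1.25 µM and H1-5 without replicate 1 of 1.25 µM. H2AC17, a further called histone gene that the list did not hold, was at 0, 0 and 3.15 TPM at 1.25 µM and 7.49, 12.8 and 4.74 TPM at 0.63 µM. H2AC17 lost its call without any library but replicate 3 of 1.25 µM, with an adjusted p of up to 0.166 in limma. Regulators of G1 were not called: CDKN1A, the inhibitor p21, was at 41.5, 43.8 and 103 TPM against 15.0, 16.8 and 32.3 TPM (1.46, adjusted p = 0.0944 in limma), with no overlap, and CCND1, cyclin D1, was at 72.0, 86.3 and 42.8 TPM against 85.0, 122 and 83.9 TPM (-0.56, adjusted p = 0.329 in limma).

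Stress genes parted at the upper step. Of 40 measured ATF4 targets 1 was called higher and 4 lower, against 0.469% and 1.04% of all genes, with a median of -0.27. At the step below, which shares the 0.63 µM libraries, 12 of the 40 were called higher and 0 lower with a median of 0.89 (0.402% of all genes were called higher there). PPP1R15A rose further, with 219, 219 and 238 TPM at 1.25 µM against 80.5, 83.5 and 121 TPM at 0.63 µM, a difference of 1.26 (SE 0.179, adjusted p = 0.00222 in limma) that was kept with each library left out. The libraries of 1.25 µM lay close together and far above the others. DDIT4, an inhibitor of mTORC1, was at 34.1, 47.6 and 33.97 TPM at 1.25 µM against 61.0, 78.8 and 80.5 TPM at 0.63 µM. MTHFD2, a mitochondrial enzyme of one-carbon metabolism, was at 180.2, 188 and 108 TPM at 1.25 µM and 252, 267 and 308 TPM at 0.63 µM. Both fell by less than 1 (-0.92 and -0.83) after having been called higher at the step below (1.54 and 1.17). SLC38A2, an amino acid transporter, fell by 0.86 and CLIC4, an intracellular chloride channel protein, by 0.69. The calls of DDIT4, MTHFD2, SLC38A2 and CLIC4 were each lost without replicate 3 of 1.25 µM (adjusted p = 0.156, 0.146, 0.133 and 0.195 in limma) and without replicate 1 or 2 of 0.63 µM. Those of DDIT4, MTHFD2 and CLIC4 were also lost without replicate 3 of 0.63 µM, and those of DDIT4 and CLIC4 without replicate 1 of 1.25 µM.

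The best known markers of this response were not called at the upper step. DDIT3, which encodes CHOP, was at 214, 224 and 252 TPM at 1.25 µM, against 91.9, 83.7 and 256 TPM at 0.63 µM, and GDF15, a stress cytokine, at 140.4, 138 and 246 TPM against 43.7, 57.0 and 284 TPM. In both, replicate 3 of 0.63 µM stood at the level of the 1.25 µM libraries, and without it DDIT3 was called higher (1.38, adjusted p = 0.031 in limma). The 95% confidence interval of the difference was 0.11 to 1.62 for DDIT3 and -0.32 to 2.12 for GDF15. TRIB3, a pseudokinase that restrains ATF4, was at 81.2, 79.96 and 57.5 TPM against 52.6, 63.01 and 65.9 TPM (0.26, adjusted p = 0.641 in limma). IL24, a cytokine of the IL-10 family, had no overlap, at 256, 279 and 399 TPM at 1.25 µM against 45.2, 49.2 and 141 TPM at 0.63 µM, and rose by 2.15 after a rise of 2.54 at the step below. Its call was lost without replicate 3 of 1.25 µM (adjusted p = 0.0583 in limma) or replicate 1 (0.0574) or 2 (0.0538) of 0.63 µM.

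**Figure D3:**
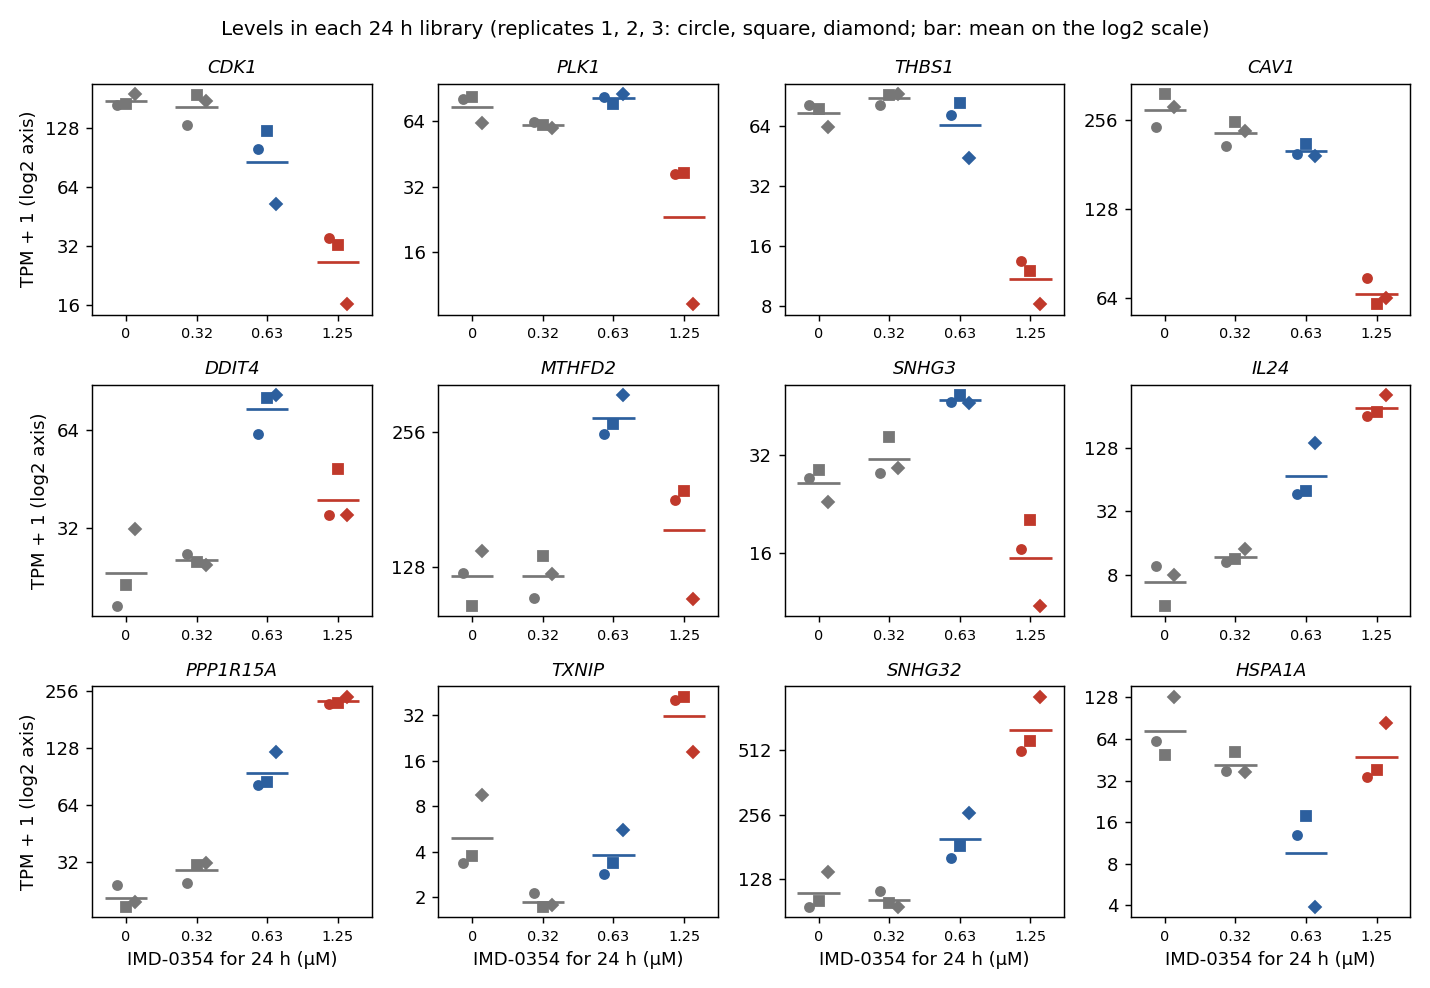
TPM + 1 on a log2 axis for 12 genes in each of the 12 libraries at 24 h (columns: untreated, 0.32, 0.63 and 1.25 µM; markers: replicates 1 to 3; bars: means on the log2 scale). DDIT4, MTHFD2 and SNHG3 are highest at 0.63 µM, IL24, PPP1R15A and SNHG32 are highest at 1.25 µM, and CDK1, PLK1, THBS1 and CAV1 are lowest there.

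Few chaperone genes were called, where 0.469% of all genes were called higher and 1.04% lower. HSPA5, the endoplasmic reticulum chaperone BiP, was the 1 gene called among 33 of the unfolded protein response (median 0.24), at 461, 467 and 432 TPM at 1.25 µM against 219.9, 240.1 and 273 TPM at 0.63 µM. It rose by 0.89 and lost its call without replicate 1 (adjusted p = 0.074 in limma) or 2 (0.0527) of 0.63 µM. HERPUD1, of endoplasmic reticulum degradation, was at 52.8, 51.4 and 75.3 TPM against 40.4, 36.0 and 48.7 TPM and was not called (0.50, adjusted p = 0.515 in limma). Of 24 genes of cytosolic chaperones and heat shock 1 was higher and 1 lower (median -0.17). HSPA1A, the inducible HSP70, was at 33.1, 37.2 and 82.4 TPM at 1.25 µM, against 11.9, 16.7 and 2.90 TPM at 0.63 µM, 35.7 to 50.7 TPM at 0.32 µM and 48.4 to 128 TPM in untreated cells. It was therefore lowest at 0.63 µM, with a rise of 2.31 at the upper step. Replicate 3 was the extreme of both groups, and the call was lost without replicate 2 or 3 of 1.25 µM or replicate 1 or 3 of 0.63 µM, with an adjusted p of up to 0.165. HSPA1B, a near-identical neighbour that shares reads with HSPA1A, was at 7.58, 6.58 and 13.7 TPM at 1.25 µM and 2.28, 3.29 and 2.15 TPM at 0.63 µM (1.48, adjusted p = 0.084 in limma). HSPB1, a small heat shock protein, fell by 0.89 and lost its call without any of the 6 libraries, with an adjusted p of up to 0.126. HSPA8, the constitutive HSC70, was at 429.8, 401 and 249 TPM against 481, 502 and 339.7 TPM and was not called (-0.31, adjusted p = 0.629 in limma).

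TXNIP, which binds thioredoxin and limits glucose uptake, had the largest rise by the naming rule (ENSG00000265972, chr1:145992435-145996600, minus strand, GENCODE 29). It was at 39.5, 41.3 and 17.2 TPM at 1.25 µM, against 1.86, 2.38 and 4.59 TPM at 0.63 µM, 0.72 to 1.14 TPM at 0.32 µM and 2.37 to 8.47 TPM in untreated cells. The difference of 3.06 (SE 0.536, adjusted p = 0.00875 in limma) was kept with each library left out, and at 0.63 µM for 48 h TXNIP was at 4.81 ± 1.29 TPM against 11.3 ± 10.8 TPM in untreated cells (SD, n = 3 each). The 100 bases before its more upstream RefSeq start (chr1:145996580-145996679 of GRCh38.p14, minus strand) are shown for the pair of CACGAG motifs, in capitals, of its carbohydrate response element.
TXNIP: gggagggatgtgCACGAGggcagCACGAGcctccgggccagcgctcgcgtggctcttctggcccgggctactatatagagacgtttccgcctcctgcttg
At least 2 CACGAG, on either strand, were in the 250 bases before a start of 0.4% of the tested genes with a promoter, in 1 of 54 genes called higher and in 1 of 130 called lower. On the list of starvation and mTORC1 control, which holds TXNIP, 2 of 19 genes were called higher and 1, DDIT4, lower, against 0.469% and 1.04% of all genes. RRAGD, a Rag GTPase of the lysosome, was at 6.07, 5.13 and 6.45 TPM against 2.01, 1.71 and 2.67 TPM, and lost its call without any of the 6 libraries, with an adjusted p of up to 0.16 in limma. MAP1LC3B, the autophagosome protein LC3B, was the 1 gene called among 39 of lysosomes and autophagy, at 86.8, 90.9 and 112 TPM at 1.25 µM against 28.99, 31.3 and 46.5 TPM at 0.63 µM (1.44, adjusted p = 0.00371 in limma), and kept its call with each library left out.

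Host genes of small nucleolar RNAs, whose introns carry snoRNAs, gave the largest share of rises among the 37 lists. Of 15 measured noncoding hosts 4 were called higher and 0 lower (median 0.39), against 0.469% of all genes called higher. At the step from 0.32 to 0.63 µM the list's median was similar, 0.35, with 0 called in either direction in limma. There SNHG32, GAS5 and ZFAS1 differed by 0.96, 0.71 and 0.76 (adjusted p = 0.0913, 0.0982 and 0.147 in limma) and SNHG12 by -0.18. SNHG32 was at 507, 565 and 909 TPM at 1.25 µM, against 159, 182 and 259.9 TPM at 0.63 µM (1.70, SE 0.243, adjusted p = 0.00226 in limma). GAS5 was at 1005, 984 and 1354 TPM at 1.25 µM, against 462, 399.9 and 624 TPM at 0.63 µM, a rise of 1.2. The calls of SNHG32 and GAS5 were kept with each library left out. SNHG12 rose by 1.61 and ZFAS1 by 1.13, with ZFAS1 at 1556, 1592 and 2155 TPM at 1.25 µM against 723, 719 and 986 TPM at 0.63 µM. SNHG12 lost its call without replicate 3 of 1.25 µM (adjusted p = 0.116 in limma) and without each library of 0.63 µM, and ZFAS1 without replicate 3 of 1.25 µM (0.101) or replicate 1 (0.084) or 2 (0.0807) of 0.63 µM. SNHG3, a further host that the list did not hold, moved the other way, at 15.5, 19.2 and 10.1 TPM at 1.25 µM against 45.3, 47.5 and 44.98 TPM at 0.63 µM (-1.61, adjusted p = 0.00112 in limma).

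The 20 bases before and after the RefSeq start are printed for the 4 hosts that rose because many hosts begin, as ribosomal protein genes do, with a 5'TOP tract, a C followed by pyrimidines; capitals mark a run of C and T that opens at the first transcribed base. GAS5 has no such run at the RefSeq start used. The whole stretch printed for it lies upstream of the GENCODE bounds of GAS5 (chr1:173863900-173868882, minus strand). It therefore cannot show whether transcripts that begin within those bounds open with such a tract.
SNHG32: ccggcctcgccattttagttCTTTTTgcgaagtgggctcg
SNHG12: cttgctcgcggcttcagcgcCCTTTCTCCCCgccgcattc
GAS5: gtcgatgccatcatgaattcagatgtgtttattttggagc
ZFAS1: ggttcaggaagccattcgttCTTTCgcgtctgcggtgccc
They lie at chr6:31834896-31834935 (plus strand), chr1:28581854-28581893 (minus), chr1:173869026-173869065 (minus) and chr20:49278622-49278661 (plus) of GRCh38.p14. Such a start, a C and 4 more pyrimidines from the first base, was found in 5 of 13 hosts with a promoter and in 46 of 62 genes of cytosolic ribosomal proteins, against 7.6% of tested genes. It was in 4 of 54 genes called higher and 10 of 130 called lower. The 78 measured genes of cytosolic ribosomal proteins had 0 called in either direction in limma (10 at an unadjusted p under 0.05, against 2299 of all 14936 genes), a median of 0.16 and a range of -0.19 to 0.39.

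Several genes of the matrix and the cell surface fell. THBS1, the matrix glycoprotein thrombospondin 1 (ENSG00000137801, chr15:39581079-39599466, plus strand, GENCODE 29), was at 12.5, 11.0 and 7.17 TPM at 1.25 µM, against 71.7, 82.8 and 43.4 TPM at 0.63 µM and 80.6 to 91.6 TPM at 0.32 µM. The fall of 2.56 (SE 0.250, adjusted p = 0.000109 in limma) was kept with each library left out. Of 23 genes of matrix, proteases and TGF-β 3 were called lower and 0 higher (median -0.26), against 1.04% and 0.469% of all genes. The other 2 were TIMP3, a tissue inhibitor of metalloproteinases, at 25.7, 22.6 and 15.2 TPM against 62.7, 70.1 and 68.9 TPM, and SERPINE2, a serine protease inhibitor, at 461, 422 and 294 TPM against 643, 753 and 797 TPM. Both kept their calls. HAPLN1, which links hyaluronan to proteoglycans, was at 2.93, 1.64 and 1.72 TPM at 1.25 µM and 12.9, 12.96 and 11.9 TPM at 0.63 µM and kept its call as well.

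CAV1, the coat protein of caveolae, had the smallest adjusted p of the genes named here, 2.22e-05 in limma. It was at 73.6, 59.9 and 62.9 TPM at 1.25 µM, against 195, 212 and 193 TPM at 0.63 µM, 208 to 252 TPM at 0.32 µM and 242 to 313 TPM in untreated cells. The fall of 1.60 (SE 0.132) followed a difference of -0.21 at the step below. CAV1 is held by the list of dedifferentiated melanoma genes, of which 4 of 24 were called lower and 0 higher (median -0.19), with 9 of 24 above 0 and NGFR (0.77) and TNC (1.05) the highest, neither called. The shares over all genes were 1.04% lower and 0.469% higher. LOXL2, a collagen cross-linking oxidase, was at 6.43, 11.0 and 5.78 TPM against 18.8, 20.3 and 17.1 TPM. CCN1, a matricellular protein and YAP target, was at 46.5, 41.6 and 22.0 TPM at 1.25 µM and 123, 112 and 140.5 TPM at 0.63 µM, and FOSL1, an AP-1 subunit, at 167, 170.3 and 119 TPM against 252, 261 and 306 TPM. LOXL2, CCN1 and FOSL1 lost their calls without replicate 3 of 1.25 µM (adjusted p = 0.0871, 0.165 and 0.155 in limma) and without replicate 1 or 2 of 0.63 µM. LOXL2 also lost it without replicate 1 of 1.25 µM, CCN1 without replicate 2 of 1.25 µM, and CCN1 and FOSL1 without replicate 3 of 0.63 µM.

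The lists of apoptosis and NF-κB signalling held few called genes, all of them rises. In the BCL2 family and the cytokine list the share called higher was above that over all genes, on 2 genes each, and BCL2A1 is in both. Of 23 genes of the BCL2 family 2 were called higher and 0 lower, against 0.469% and 1.04% of all genes. HRK, a BH3-only activator of apoptosis, was at 5.95, 3.74 and 4.95 TPM at 1.25 µM, against 1.01, 0.08 and 0.09 TPM at 0.63 µM, and kept its call with each library left out. BCL2A1, an antiapoptotic NF-κB target, was at 4.18, 1.2 and 4.19 TPM against 0, 0.64 and 0 TPM and lost its call without replicate 1 or 3 of 1.25 µM or replicate 1 or 3 of 0.63 µM, with an adjusted p of up to 0.101 in limma. Of 18 cytokines and NF-κB targets IL24 and BCL2A1 were called higher and 0 lower, and 0 of 17 components of the NF-κB pathway were called in either direction in limma (2 at an unadjusted p under 0.05, against 2299 of all 14936 genes, median -0.04). IKBKB, which encodes IKKβ, was at 11.3, 3.44 and 2.05 TPM against 14.2, 10.8 and 12.1 TPM (-1.27, adjusted p = 0.203 in limma). NFKBIA, the inhibitor IκBα and a target of NF-κB, was at 11.4, 11.2 and 12.2 TPM at 1.25 µM and 18.03, 17.5 and 19.6 TPM at 0.63 µM, with no overlap (-0.62, adjusted p = 0.287 in limma), and RELA, the subunit p65, was at 26.3, 23.3 and 19.0 TPM against 21.4, 19.0 and 24.4 TPM.

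The remaining rises chosen by the naming rule were of mixed function. SPRR2D, a protein of the cornified envelope, was at 22.4, 21.4 and 12.4 TPM at 1.25 µM, against 2.02, 0.77 and 1.66 TPM at 0.63 µM, and LINC00520, a noncoding RNA, at 14.9, 16.1 and 13.2 TPM against 0, 2.69 and 4.33 TPM. AHNAK2, a large scaffold protein, was at 19.6, 18.4 and 18.3 TPM at 1.25 µM and 6.20, 3.94 and 2.54 TPM at 0.63 µM. SPRR2D, LINC00520, AHNAK2 and the antisense RNA SCOC-AS1 (2.85) kept their calls with each library left out. SLAMF7, a receptor known from lymphocytes (2.11), and LINC02057 (2.20) lost theirs without replicate 3 of 1.25 µM (adjusted p = 0.0538 and 0.0615 in limma). TAC1, the precursor of substance P (2.16), BEX2 (2.09) and NRIP3 (2.08) lost theirs with an adjusted p of up to 0.0835, 0.137 and 0.101 in limma: TAC1 without replicate 1 of 1.25 µM or any library of 0.63 µM, BEX2 without any but replicate 3 of 0.63 µM, and NRIP3 without any of the 6. Of KLF6, an immediate early zinc finger factor, the level was 18.5, 32.1 and 34.2 TPM against 8.88, 9.09 and 13.6 TPM; its call was lost without replicate 2 or 3 of 1.25 µM or replicate 1 or 2 of 0.63 µM, with an adjusted p of up to 0.142.

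Among the remaining falls, CEP152, a scaffold of centriole duplication, was at 5.90, 7.28 and 10.2 TPM at 1.25 µM against 45.4, 57.2 and 29.2 TPM at 0.63 µM. TLE4, a Groucho corepressor, was at 6.90, 6.81 and 11.3 TPM against 39.6, 42.5 and 24.1 TPM. Both kept their calls with each library left out, as did ABHD15-AS1, an antisense RNA at 2.99, 0 and 0 TPM at 1.25 µM and 21.5, 28.9 and 35.5 TPM at 0.63 µM. IRS1, the adaptor of the insulin receptor (-2.04), lost its call without replicate 3 of 1.25 µM (adjusted p = 0.0827 in limma) or replicate 1 (0.0835) or 2 (0.0615) of 0.63 µM. ADAM19, a membrane metalloprotease (-1.93), SEPSECS-AS1 (-1.92) and CHURC1-FNTB (-2.60) lost theirs without replicate 3 of 1.25 µM (adjusted p = 0.115, 0.131 and 0.106 in limma) and without replicate 1 or 3 of 0.63 µM, ADAM19 also without replicate 2 of 0.63 µM and CHURC1-FNTB without replicate 2 of 1.25 µM. CHURC1-FNTB is a readthrough of its neighbours, and whether the antisense RNAs were counted by strand is not stated, so their reads cannot be told apart from those of overlapping genes. In mitochondria few genes were called, where 1.04% of all genes were called lower. ATP5F1A (-0.73) and SDHA (-0.61) were the 2 genes called among 39 of complexes II to V, and MRPS26 (-0.90) and MRPS18B (-0.67) the 2 among 68 of the mitoribosome. Of these 4, MRPS26 kept its call with each library left out, SDHA lost it without any but replicate 3 of 0.63 µM, and ATP5F1A and MRPS18B without any but replicate 1 of 1.25 µM, with an adjusted p of up to 0.165 in limma.

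In 13 further lists limma called 0 members in either direction. Their counts at an unadjusted p under 0.05 in limma stand beside 2299 of 14936 over all genes tested. The 23 targets of p53 had the highest median of all lists, 0.423, barely above the 0.421 of AP-1 and immediate early genes, with 6 at an unadjusted p under 0.05. The 24 genes of interferon and antigen presentation had a median of 0.01 with 1. The 20 aminoacyl-tRNA synthetase genes had a median of -0.28 with 6, and the 23 genes of NRF2 and antioxidant defence -0.33 with 3. Medians were -0.24 for 14 CDK inhibitors and G1 regulators (3 at an unadjusted p under 0.05), -0.20 for 13 genes of fatty acid synthesis (3), 0.02 for 24 of cholesterol synthesis (2), and 0.04 for 12 of iron and metallothioneins (3). They were -0.15 for 31 proteasome subunits (3), 0.04 for 38 nuclear genes of complex I (2), -0.13 for 13 mitochondrial DNA transcripts (5), -0.01 for 34 genes of ribosome biogenesis (9), and -0.15 for 19 small noncoding RNAs (3). In 5 other lists the called members were genes described above: TXNIP among 34 genes of glycolysis and hypoxia, KLF6 and FOSL1 among 18 of AP-1 and immediate early genes, FOSL1 among 20 of MAPK output, BCL2A1 among 11 melanocyte genes, and CCN1 among 20 YAP targets (median -0.45). Over all genes 0.469% were called higher and 1.04% lower.

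**Figure D4:**
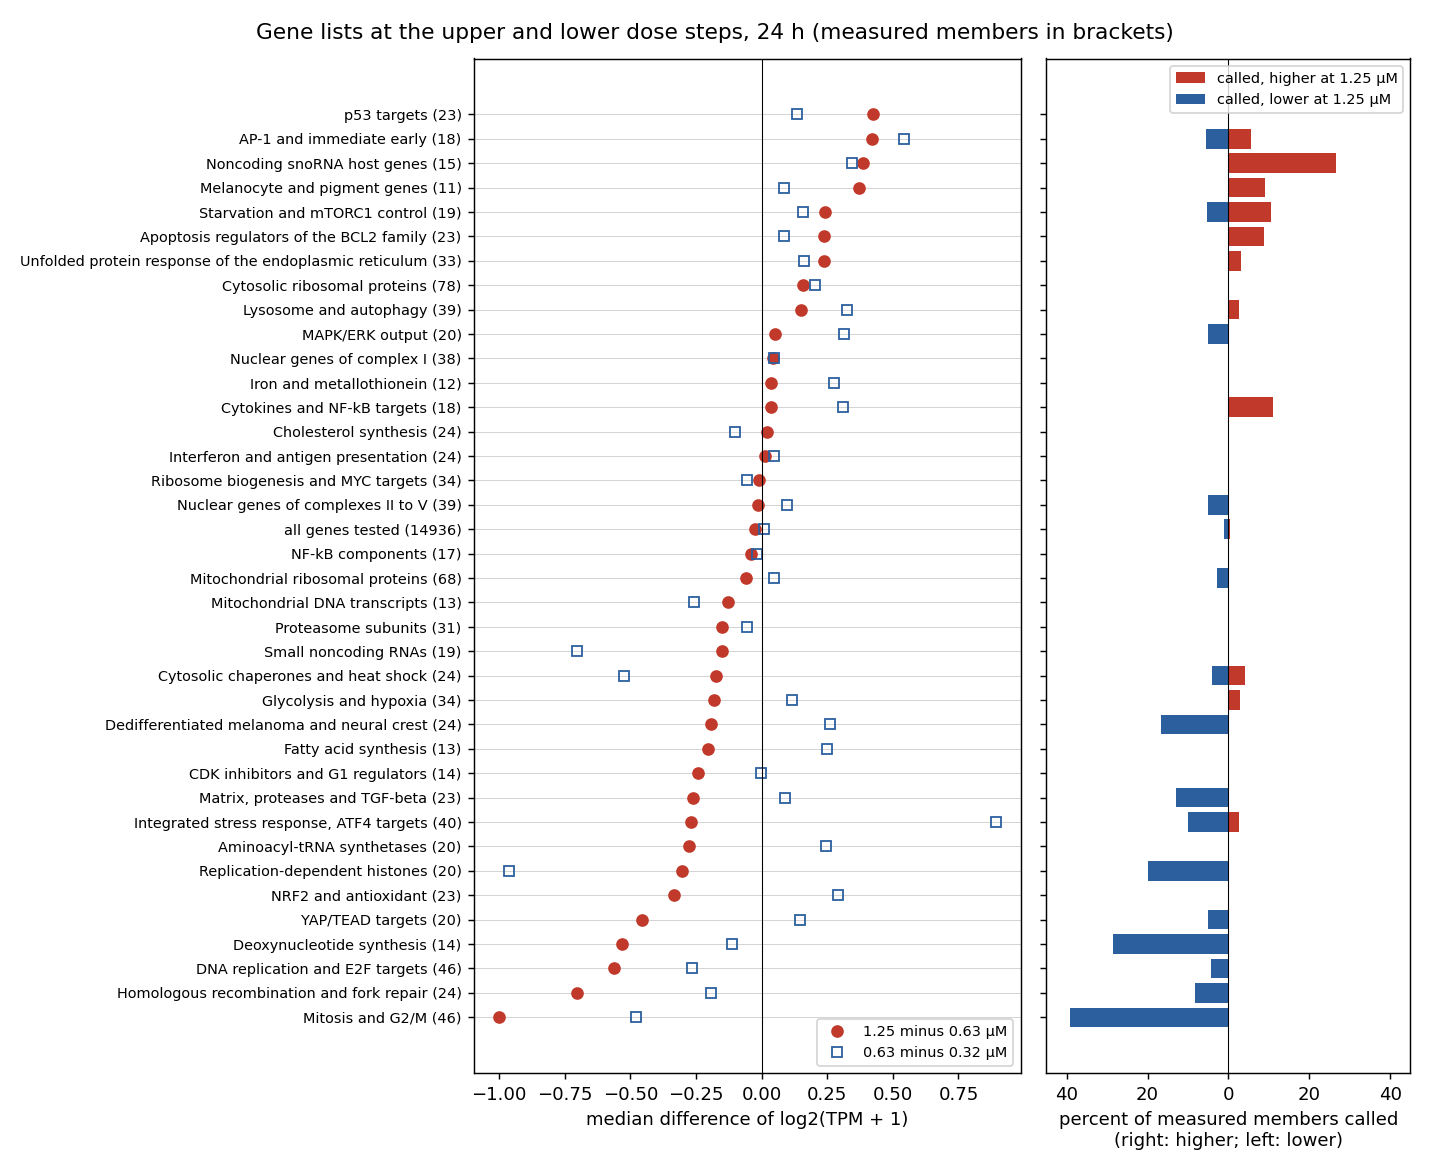
Median difference of log2(TPM + 1) over the measured members of 37 lists and over all genes tested (left) at the upper step (red circles) and the lower step (blue squares), and the percent of members called at the upper step (right). The mitosis list has the lowest median at the upper step (-1.0) and the ATF4 targets lie at -0.27 there and at 0.89 at the lower step; both steps share the 0.63 µM libraries.

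Whether a gene changed differently at the upper and the lower step was tested as the difference of the steps. This test calls unequal changes and cannot show that a gene did not move at the lower step. At the lower step 60 genes were higher and 23 lower (0.556% in all, 0.154% lower). The test of upper minus lower step called 5 genes (0.0335%), 0 higher and 5 lower, with 1555 at an unadjusted p under 0.05, and with only these 3 groups in the fit it called 0, with 1622. DDIT4 gave -2.46 (adjusted p = 0.0411 in limma), SNHG3 -2.20, MTHFD2 -2.0 and CAV1 -1.40 (each 0.0465). DDIT4, MTHFD2 and RNF139-DT had been called higher at the lower step and were lower at the upper one. CAV1 and SNHG3 were called at the upper step and not at the lower. At the lower step CAV1 differed by -0.21 (confidence interval -0.485 to 0.073). SNHG3 differed there by 0.60, with a wholly positive confidence interval (0.154 to 1.042, adjusted p = 0.21 in limma). At 0.63 µM SNHG3 was called higher than in untreated cells at 24 h (0.842, adjusted p = 0.0483 in limma). RNF139-DT (-3.75, adjusted p = 0.00317) lay under the level needed for naming and was added after its values were seen, at 0.08, 0.16 and 0 TPM at 1.25 µM, 2.15, 3.29 and 3.54 TPM at 0.63 µM and 0 to 0.11 TPM at 0.32 µM. SNHG3 lost its call without replicate 1 of 1.25 µM (adjusted p = 0.0501 in limma) and CAV1 without replicate 2 (0.115). Without the untreated libraries in the fit SNHG3, MTHFD2 and CAV1 lost the call (adjusted p = 0.123, 0.0992 and 0.0772 in limma). The 4 calls other than RNF139-DT were lost without replicate 3 of 1.25 µM (adjusted p of 0.0506 to 0.101), without each library of 0.63 µM (0.0882 to 0.18) and without each library of 0.32 µM (0.061 to 0.129), and RNF139-DT lost its call without replicate 3 of 0.63 µM (0.0644).

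Of the genes on the 37 lists, DDIT4, MTHFD2 and CAV1 were called in the test of the steps' difference, so no list as a whole was shown to change at the upper step and not at the lower. In the mitosis list the median was -1.0 at the upper step and -0.48 at the lower, where CCNB1 was the 1 member called (-1.03); 0 of 46 members passed the test of the difference between the steps. Among genes called at the upper step, the 95% confidence interval of the lower step lay within 1 log2 unit of 0 for 38 of the 70 that were higher and for 102 of the 156 that were lower. These bounds are on the log2(TPM + 1) scale and do not limit the fold change of low genes. TXNIP was not among them, with 1.02 at the lower step (adjusted p = 0.422 in limma).

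The 48 h libraries share no sample with the upper step and hold 0.63 µM against untreated cells, with 291 genes called higher (1.95%) and 849 lower (5.68%). Both sets of calls use a spread per gene pooled over all 18 libraries, so they are not independent. A gene with a small pooled spread is more readily called in both. Of the 70 genes higher at 1.25 µM 27 were called higher and 2 lower there, with a median of 0.63. Of the 156 lower genes 83 were called lower and 3 higher, with a median of -0.77. The 14710 genes not called at the upper step had a median of -0.15, with 1.77% called higher and 5.19% lower. The mitosis list had 37 of 46 called lower and 0 higher at 48 h (median -1.34) and the snoRNA hosts 7 of 15 higher and 0 lower (median 0.85). CAV1 was called lower (-1.95), THBS1 lower (-1.99) and SNHG32 higher (2.02). DDIT4 and MTHFD2 were called higher (1.42 and 0.69) and HSPA1A lower (-2.62), each the opposite of its call at the upper step, and TXNIP was not called (-0.73, adjusted p = 0.486 in limma).

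**Figure D5:**
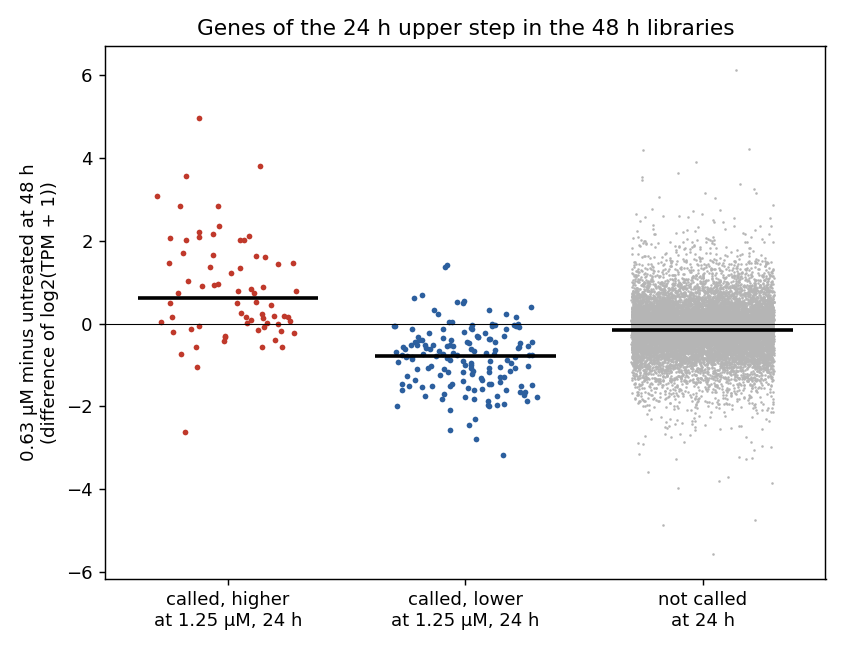
Difference of log2(TPM + 1) between 0.63 µM and untreated cells at 48 h (y axis) for the 70 genes called higher and the 156 called lower at 1.25 µM at 24 h and for the 14710 others; points are genes, black bars medians. The medians are 0.63, -0.77 and -0.15.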

How the data were processed

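The 18 libraries were made from total RNA with a QuantSeq 3' FWD kit, per the labels' protocols. The submitters' processing notes list cutadapt 1.18, STAR 2.7, RSEM 1.3.1 and, without a version, DESeq2. Their roles, the genome build and the gene models were not given in the sources used here. Deposited by the authors was 1 table of TPM for 60504 Ensembl identifiers. It holds no counts, so depth, and the precision it allows, is unknown. TPM divides by length although a 3' end library yields about 1 tag per transcript.

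Symbols came from a table of identifiers (56558 matched, 41209 with a symbol) and coordinates from GENCODE 29 (56996 matched). R 4.3.3 and limma 3.58.1 (statmod 1.5.0) fitted log2(TPM + 1) of the 14936 genes that reached 1 TPM in 3 or more libraries, 1 mean per group over 18 libraries (12 residual and 4.16 prior degrees of freedom), with a mean-variance trend. Differences were 1.25 minus 0.63 µM, 0.63 minus 0.32 µM, the first minus the second, and 0.63 µM minus untreated at 48 h. Both directions were tested. The code was tested on simulated data.

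The members and the 37 lists (973 measured genes) were chosen with earlier results of these data known, so their directions are not independent evidence. Genes were named by rule: the 12 largest rises and 12 largest falls with a symbol, a mean of at least 5 TPM in 1 group and no overlap; called genes of the step difference; per list up to 4 called members of largest change; and 18 preset genes. TOP2A, CLIC4 and genes added for comparison (HSPA1B, KRT10, RNF139-DT and those of the closing observations) were chosen after their values were seen. Some named genes are not reported here. Promoters came from RefSeq (GRCh38.p14). Alternatives were quantile normalization, median-of-ratios scaling, pseudocounts of 0.1 and 5 TPM, dropping the filter or raising it to 5 TPM, rescaling without the 10 most abundant genes, no trend, a robust prior, dropping duplicate rows, fewer groups in the fit, library weights, the replicate number as a block and leaving out each library.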

Additional observations from a re-analysis of the deposited data

How the results depend on the processing

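Of 88 named genes called at the upper step 33 kept the call with each of the 6 libraries left out, 19 kept it under every alternative but the fit of the compared groups alone, 0 under all, and 0 changed direction. RELA, not called, lay between -0.027 and 0.20 with single libraries left out, under 0 without replicate 1 of 1.25 µM and replicate 2 of 0.63 µM (-0.008). Fitted to the compared groups alone, 0 genes were called at any step, also of the mitosis and snoRNA host lists. At the upper step, counts were 112 higher under quantile normalization, 92 lower without the trend, 114 higher and 236 lower with library weights, and 33 to 60 higher and 45 to 136 lower with single libraries left out (mitosis genes 4 to 19, snoRNA hosts 2 to 4). Without all libraries numbered 3, chosen after seeing the data, they were 19 and 39, with 3 mitosis genes and 2 hosts. At the lower step, counts were 14 lower with a pseudocount of 0.1 TPM, 13 with a minimum of 5 TPM, 35 rescaled without the 10 most abundant genes, 41 with weights and 39 with the block, 95 higher without the untreated libraries, 16 to 48 higher and 2 to 20 lower with single libraries left out, and 6 and 0 without those numbered 3. For the difference of the steps 0 were lower with a pseudocount of 0.1 TPM and 9 with 5 TPM, 2 higher and 9 lower with no filter, 1 higher under quantile normalization, 1 lower after rescaling, 2 without the trend, 2 without untreated libraries, 1 higher and 8 lower with weights, 2 with the block, 0 to 1 higher and 0 to 7 lower with single libraries left out, and 1 without those numbered 3. The replicate block gave 87 higher and 200 lower at the upper step and called MKI67 (adjusted p = 0.0176 in limma). Between the 2 doses, deviations from the group mean correlated at 0.03 to 0.06 for same-numbered libraries and at -0.044 to 0.012 for others. All 6 of 6 libraries correlated best with their own number. These values were under 0.1 and the main fit does not use the number. Whether the number marks libraries handled together is not stated. Weights called CDKN1A (0.0284). The causes were not tested. Depth is unknown, so what it limits cannot be given.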

Other observations

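Genes of the actin cytoskeleton and focal adhesions were looked up after the values were seen, so their counts support nothing beyond the values. Of 22 measured genes 6 were called lower and 1 higher at 1.25 µM against 0.63 µM (median -0.49), and 0 at the lower step (median 0.26). At the upper step 1.04% of all genes were called lower and 0.469% higher. ACTB, cytoplasmic β-actin, was at 1438, 1429 and 903 TPM at 1.25 µM, against 2333, 2463 and 2284 TPM at 0.63 µM, and ACTG1, γ-actin, at 713, 826 and 724 TPM against 1335, 1584 and 1285 TPM. VCL, vinculin, was at 9.02, 9.88 and 7.49 TPM and ACTN1, an actin cross-linker, at 80.6, 70.3 and 53.7 TPM at 1.25 µM, against 16.1, 18.4 and 15.2 TPM and 119.6, 132 and 102 TPM at 0.63 µM. CSRP1, a LIM protein of actin bundles, was the gene that rose, to 33.4, 36.9 and 32.3 TPM at 1.25 µM, against 15.5, 14.9 and 12.1 TPM at 0.63 µM. ACTB and CSRP1 kept their calls with each library left out; ACTG1 lost its call without replicate 3 of 1.25 µM or replicate 2 of 0.63 µM (adjusted p of up to 0.0672 in limma), VCL without any but replicate 2 of 1.25 µM, ACTN1 without replicate 2 or 3 of 1.25 µM or replicate 1 or 2 of 0.63 µM (up to 0.154), and PDLIM1 (-0.98) and MYO1E (-0.65) without any of the 6 (up to 0.172).

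Of 17 condensin and cohesin genes, which fold and hold chromosomes, 4 were called lower and 0 higher at the upper step (median -0.64), again looked up afterwards. The shares over all genes were 1.04% and 0.469%. NCAPG2 was at 5.83, 5.50 and 4.16 TPM at 1.25 µM against 15.4, 15.7 and 16.6 TPM at 0.63 µM, and NCAPD2 at 6.81, 7.67 and 3.12 TPM against 18.6, 20.5 and 15.5 TPM; both kept their calls with each library left out. RAD21 (-0.95) and SMC1A (-0.89), subunits of cohesin, lost theirs without replicate 3 of 1.25 µM (adjusted p = 0.0504 and 0.165 in limma) or replicate 2 of 0.63 µM (0.0711 and 0.162), SMC1A also without replicate 1 or 2 of 1.25 µM or replicate 1 of 0.63 µM. Of 365 zinc finger genes with a ZNF number 5 were called higher and 2 lower, with a median of 0.21; over all genes 0.469% were higher and 1.04% lower. ZNF182 (1.11), ZNF571 (1.70), ZNF606 (-1.69) and ZNF236 (-1.28) each lost the call without at least 5 of the 6 libraries (up to 0.183). ZNF557 was at 6.11, 7.18 and 5.49 TPM against 2.45, 2.07 and 1.60 TPM and kept its call with each library left out, ZNF622 (1.23) lost it without replicate 3 of 0.63 µM (0.0546) and ZNF91 (1.45) without replicate 1 of 0.63 µM (0.0508).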
